A study of Mus musculus with 24 samples.

Results

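Messenger RNAs of the cell division cycle were followed through 4 states of mouse skin. The set holds 45 genes, listed by name, and the list was made with earlier results of these data known. Of these, 28 encode proteins of mitosis and are called mitosis members here, and 17 encode proteins of DNA replication and its entry step and are called replication members. All 45 were found among the 39017 gene IDs of the table, and all 45 passed the filter on low counts. RNA was sequenced from dorsal skin of female C3H/HeJ mice, labelled as about 30 weeks old at termination, an inbred strain in which alopecia areata (AA, autoimmune hair loss) can be induced by grafting skin from an affected mouse. There were 6 libraries in each of 4 groups. The 8w off treatment group held AA mice that had been given an oral selective JAK1 inhibitor at 100 mg/kg once daily for 4 weeks and were sampled at week 12, 8 weeks after dosing ended. The systemic JAK1i group held biopsies taken at the end of those 4 weeks of dosing. They came from the same mice as the 8w off treatment samples, as the methods describe, and were thus taken 8 weeks earlier, at a younger age. The series description speaks of 12 weeks of dosing, whereas the sample names and the treatment protocol give 4 weeks, which is used here. The AA group held mice with developed hair loss labelled as untreated, sampled at week 12, and the healthy group held untreated mice without AA, also sampled at week 12. The names of the AA samples carry an abbreviation that may stand for vehicle, so whether these mice received vehicle is not known. Treatment, sampling week and age cannot be told apart for the systemic JAK1i group, which alone was taken at week 4.

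A dividing cell first passes from G1 into S phase, when its DNA is copied. E2F transcription factors and cyclin E with its kinase open this step. ORC, Cdc6 and Cdt1 load the MCM helicase onto origins, and the GINS complex helps to activate it. PCNA clamps the polymerases to DNA, while ribonucleotide reductase and thymidylate synthase supply nucleotides. Mitosis follows, driven by cyclin B and Cdk1, with Aurora and Polo kinases, kinesins and kinetochore proteins that build the spindle, checkpoint proteins that hold anaphase back, and Cdc20 and Ube2c that act with the anaphase-promoting complex to release it. Many mitosis genes carry a CHR element and CCAAT boxes in their promoters, whereas many replication genes carry E2F sites. Mitosis genes are among those held down in resting cells by the DREAM complex. In skin, the cells known to divide include basal keratinocytes, the matrix cells at the base of a growing hair follicle and activated lymphocytes.

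Total counts ran from 3444193 to 11233020 per library, and counts of single members from 7 (Ccne1) to 4247 (Mki67). Levels are given as CPM, counts scaled to library size by TMM, which allows one gene to be compared between libraries but not different genes with each other. Each sample is a separate library, and p-values measure the spread between libraries. No pair of libraries within a group agreed within sampling noise (60 pairs). Markers of skin were present in every library, with a summed level of 6502 to 15860.4 CPM over 6 keratinocyte genes, of 7 listed, and 1869.6 to 9018 CPM over 4 genes of dermal matrix. A pair of healthy libraries, A and E, stood apart with 317 and 255 CPM summed over 10 skeletal muscle genes, against 3413 to 19754 CPM in the other 4 healthy libraries. A pair of 8w off treatment libraries, also lettered A and E, stood apart with 32320.1 and 34648 CPM of muscle genes, against 7349 to 21512 CPM in the other 4, and in hair genes, as described below with the values they touch.

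Mki67, the gene of the proliferation antigen Ki-67, and Top2a, the topoisomerase that untangles chromosomes, separated 8w off treatment and AA skin from systemic JAK1i and healthy skin. The lowest, median and highest values of Mki67 were 256, 361 and 499.8 CPM in 8w off treatment skin, 121, 156 and 192 CPM in systemic JAK1i skin, 305, 450.3 and 563 CPM in AA skin and 137, 179.9 and 253 CPM in healthy skin. Those of Top2a were 146, 204 and 274 CPM in 8w off treatment skin, 69.6, 89.9 and 111 CPM in systemic JAK1i skin, 189, 269 and 342 CPM in AA skin and 78.04, 109.7 and 133 CPM in healthy skin. For both genes every 8w off treatment and every AA library lay above every systemic JAK1i and every healthy library, while the ranges of 8w off treatment and AA skin overlapped, as did those of systemic JAK1i and healthy skin. The fold change of Mki67 was 1.24 ± 0.18 (log2 ± SE, here and below) for 8w off treatment against systemic JAK1i, -1.51 ± 0.18 for systemic JAK1i against AA and 1.29 ± 0.18 for AA against healthy (edgeR quasi-likelihood test with Benjamini-Hochberg adjustment over 16248 genes, adjusted p = 2.3e-05, 1.4e-06 and 1.0e-05 in that order). In bulk skin, a smaller share of dividing cells and less of an mRNA per cell cannot be told apart.

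The kinase pair that triggers mitosis gave the same order with more overlap. Cdk1, the mitotic kinase itself, had lowest, median and highest levels of 15.7, 26.3 and 30.9 CPM in 8w off treatment skin, 6.99, 10.01 and 12.7 CPM in systemic JAK1i skin, 22.95, 30.7 and 39.02 CPM in AA skin and 7.72, 12.2 and 20.03 CPM in healthy skin. Its cyclin, Ccnb1, had 18.4, 27.9 and 40.3 CPM in 8w off treatment skin, 10.9, 14.3 and 20.1 CPM in systemic JAK1i skin, 27.3, 34.8 and 45.9 CPM in AA skin and 12.9, 16.4 and 22.96 CPM in healthy skin. Every AA library was above all systemic JAK1i and healthy libraries for both genes. For Cdk1, the 8w off treatment range overlapped only the healthy range among these, by the healthy library B at 20.03 CPM, whereas that of Ccnb1 reached into both. Ccnb1 was 0.92 ± 0.20 in 8w off treatment against systemic JAK1i skin and -1.28 ± 0.20 in systemic JAK1i against AA skin (edgeR adjusted p = 0.0013 and 3.1e-05).

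At the exit from mitosis, Cdc20, the activator of the anaphase-promoting complex, ranged over 18.01, 23.3 and 33.3 CPM in 8w off treatment skin, 9.93, 11.03 and 15.6 CPM in systemic JAK1i skin, 26.2, 31.2 and 39.1 CPM in AA skin and 9.77, 14.7 and 26 CPM in healthy skin (lowest, median, highest). Birc5, which encodes survivin of the chromosomal passenger complex, ranged over 7.38, 12.04 and 16.9 CPM in 8w off treatment skin, 3.27, 3.92 and 4.95 CPM in systemic JAK1i skin, 11.5, 15.03 and 15.9 CPM in AA skin and 3.16, 5.40 and 7.03 CPM in healthy skin. Birc5 separated 8w off treatment and AA skin from systemic JAK1i and healthy skin without overlap. For Cdc20, the healthy library B, at 26 CPM, lay just under the lowest AA library at 26.2 CPM and inside the 8w off treatment range. Healthy library E, at 18.6 CPM, was also inside the 8w off treatment range. In systemic JAK1i against AA skin, Birc5 was -1.86 ± 0.19 (edgeR adjusted p = 3.4e-07). The deposited table of TPM, which are scaled to transcript length as well, gave a smaller difference for this gene, -0.33 after each library was centred on its median.

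Members of the replication class differed by less and overlapped more. Mcm2, a subunit of the replicative helicase, had lowest, median and highest levels of 32.3, 39.1 and 51.9 CPM in 8w off treatment skin, 20.2, 22.7 and 26.3 CPM in systemic JAK1i skin, 29.1, 39.3 and 40.9 CPM in AA skin and 18.9, 21.7 and 32.9 CPM in healthy skin. Mcm5, another subunit, had 28.9, 49.1 and 62.1 CPM in 8w off treatment skin, 19.1, 21.7 and 29.3 CPM in systemic JAK1i skin, 37.4, 54.9 and 60.6 CPM in AA skin and 17.5, 22.96 and 32.2 CPM in healthy skin. Mcm6, also of the helicase ring, had 70.7, 81.1 and 88.01 CPM in 8w off treatment skin, 47.99, 56.4 and 63.3 CPM in systemic JAK1i skin, 56, 84.8 and 91.7 CPM in AA skin and 44.2, 58.1 and 71.7 CPM in healthy skin. In Mcm2, both 8w off treatment and AA skin were above systemic JAK1i skin in every library, and the healthy library B, the highest of its group, overlapped both. In Mcm5, every AA library was above the systemic JAK1i and healthy ranges, while 8w off treatment library A lay inside them. In Mcm6, AA library D, at 56 CPM, overlapped systemic JAK1i and healthy skin, and 8w off treatment library A lay just below the highest healthy one. The difference between systemic JAK1i and AA skin was -0.67 ± 0.13 for Mcm2, -1.17 ± 0.18 for Mcm5 and -0.51 ± 0.11 for Mcm6 (edgeR adjusted p = 3.4e-04, 1.5e-05 and 6.1e-04 in that order).

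Genes of nucleotide supply, S-phase entry and the clamp differed in the size of their change. Rrm2, the small subunit of ribonucleotide reductase, had lowest, median and highest levels of 21.1, 31.03 and 37.4 CPM in 8w off treatment skin, 13.9, 16.6 and 18.4 CPM in systemic JAK1i skin, 29.4, 34.5 and 41.9 CPM in AA skin and 16.5, 17.7 and 23.6 CPM in healthy skin. Ccne1, the cyclin E that opens S phase, was low in counts and had 2.92, 5.68 and 7.91 CPM in 8w off treatment skin, 1.29, 1.68 and 2.45 CPM in systemic JAK1i skin, 3.44, 5.77 and 8.22 CPM in AA skin and 1.53, 1.94 and 2.81 CPM in healthy skin. Ccne1 did not overlap between the 8w off treatment or AA libraries and the systemic JAK1i or healthy libraries, and at 1.64 ± 0.23 (8w off treatment against systemic JAK1i) and -1.69 ± 0.23 (systemic JAK1i against AA) it changed most among replication members (edgeR adjusted p = 1.7e-05 and 5.9e-06). Pcna, the sliding clamp, had 48.01, 58.8 and 63.3 CPM in 8w off treatment skin, 37.3, 48.5 and 51.04 CPM in systemic JAK1i skin, 40.4, 61.8 and 74.02 CPM in AA skin and 39.96, 50.1 and 54.1 CPM in healthy skin. All 4 Pcna ranges overlapped. Pcna was 0.29 ± 0.11 in AA against healthy skin and 0.23 ± 0.11 in 8w off treatment against healthy skin, neither past the threshold (edgeR adjusted p = 0.0501 and 0.127), and -0.35 ± 0.11 in systemic JAK1i against AA skin (adjusted p = 0.014). Its difference between 8w off treatment and systemic JAK1i skin, 0.30 ± 0.11 with an adjusted p of 0.044, no longer passed when 8w off treatment library B, C, D or F or systemic JAK1i library A, B, C or D was left out (0.24 to 0.32). The difference between AA and healthy skin passed, at 0.31 to 0.37, without AA library D or F or healthy library B.

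**Figure D1:**
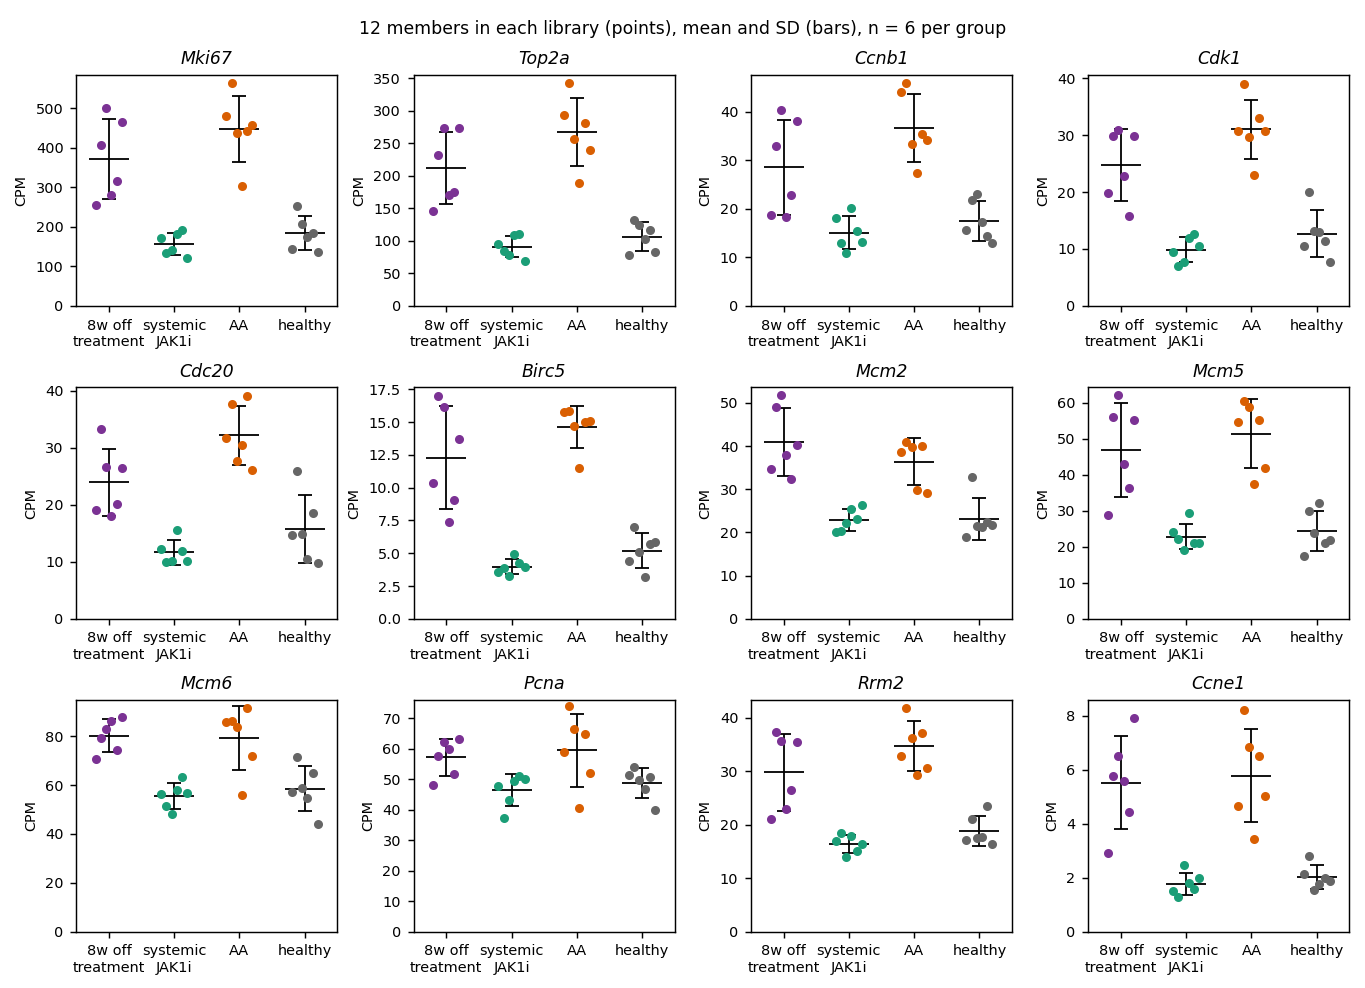
Levels of 12 members in each of the 24 libraries, in CPM on axes that start at 0; points are libraries, the long bar is the group mean and the whiskers 1 SD (n = 6 per group). The 6 AA libraries of Mki67 sit between 305 and 563 CPM and the 6 healthy ones between 137 and 253 CPM, whereas the 4 groups of Pcna overlap.

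Promoters of members that hold the elements named above show where these lie. RefSeq promoters (build GRCm38.p6, 250 bases before to 50 after the transcription start) were found for 37 of the 45 members. They are shown for the 3 mitosis members with a CHR and the 3 replication members with an E2F site that had the highest mean CPM, in the direction of transcription. Rrm1, the large subunit of ribonucleotide reductase, and Pcna held no E2F match and are not shown. In the mitosis members Mki67 (chr7:135716330-135716629, - strand), Top2a (chr11:99024140-99024439, - strand) and Cenpf, a kinetochore protein (chr1:189688037-189688336, - strand), capitals mark CHR (TTTGAA) and CCAAT on either strand. In the replication members Mcm6 (chr1:128359656-128359955, - strand), Mcm7, a helicase subunit (chr5:138171834-138172133, - strand), and Uhrf1, which guides maintenance DNA methylation (chr17:56304063-56304362, + strand), capitals mark E2F sites (TTTGGCGC, TTTGCCGC, TTTCGCGC or TTTCCCGC) on either strand.
Mki67: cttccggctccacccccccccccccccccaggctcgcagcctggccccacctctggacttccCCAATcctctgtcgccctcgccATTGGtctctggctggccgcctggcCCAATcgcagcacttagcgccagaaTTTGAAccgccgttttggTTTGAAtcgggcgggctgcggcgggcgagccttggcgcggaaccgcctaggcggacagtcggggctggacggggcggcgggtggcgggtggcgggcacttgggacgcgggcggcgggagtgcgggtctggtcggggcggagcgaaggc
Top2a: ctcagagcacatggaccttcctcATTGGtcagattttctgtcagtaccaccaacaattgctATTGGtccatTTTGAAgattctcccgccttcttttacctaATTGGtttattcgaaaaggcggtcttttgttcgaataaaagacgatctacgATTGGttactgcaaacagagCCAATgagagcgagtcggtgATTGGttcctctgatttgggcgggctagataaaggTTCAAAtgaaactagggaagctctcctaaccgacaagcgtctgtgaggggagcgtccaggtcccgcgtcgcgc
Cenpf: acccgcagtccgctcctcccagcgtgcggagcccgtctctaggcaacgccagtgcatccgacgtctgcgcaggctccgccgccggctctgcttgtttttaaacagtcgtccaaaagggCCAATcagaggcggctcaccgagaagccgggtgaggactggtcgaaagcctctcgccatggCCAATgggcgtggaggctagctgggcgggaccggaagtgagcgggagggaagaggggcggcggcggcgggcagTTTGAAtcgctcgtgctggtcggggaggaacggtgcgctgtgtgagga
Mcm6: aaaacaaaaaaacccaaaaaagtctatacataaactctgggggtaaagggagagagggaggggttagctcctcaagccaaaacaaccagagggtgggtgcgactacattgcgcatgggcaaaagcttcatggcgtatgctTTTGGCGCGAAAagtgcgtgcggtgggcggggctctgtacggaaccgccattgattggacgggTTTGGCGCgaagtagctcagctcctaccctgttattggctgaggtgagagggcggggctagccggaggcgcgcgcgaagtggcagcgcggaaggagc
Mcm7: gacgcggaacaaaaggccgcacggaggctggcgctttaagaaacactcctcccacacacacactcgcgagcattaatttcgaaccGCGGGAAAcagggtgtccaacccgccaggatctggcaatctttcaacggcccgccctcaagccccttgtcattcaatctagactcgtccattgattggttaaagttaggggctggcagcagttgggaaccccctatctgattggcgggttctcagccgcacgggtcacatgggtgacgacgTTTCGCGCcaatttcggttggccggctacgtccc
Uhrf1: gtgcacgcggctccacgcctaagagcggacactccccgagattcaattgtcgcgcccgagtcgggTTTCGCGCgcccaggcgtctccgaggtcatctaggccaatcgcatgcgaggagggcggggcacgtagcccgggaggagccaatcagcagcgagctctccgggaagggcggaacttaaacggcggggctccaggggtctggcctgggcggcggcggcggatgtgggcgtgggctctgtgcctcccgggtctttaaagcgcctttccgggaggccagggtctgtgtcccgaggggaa

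The 2 Mki67 CHR matches began 116 and 98 bases before the start, and those of Top2a 179 and 23 bases before it. The Top2a match at 23 bases lay downstream of all 6 CCAAT boxes of that promoter. Mcm6 held 3 E2F matches, of which 2 overlap each other. Over all members with a promoter, CHR was found in 17 of 24 mitosis and 1 of 16 replication promoters, against 17.9% of the 32851 promoters in the RefSeq table. E2F sites showed the opposite distribution, in 1 of 24 mitosis and 7 of 16 replication promoters, against 2.26% of all. CCAAT was found in 18 of 24 mitosis and 11 of 16 replication promoters, against 37.4% of all. These are letter matches counted with no test, and 3 genes contributed 2 promoters each.

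Averaged within a library, the classes kept this order. The mean log2 CPM of the 28 mitosis members had lowest, median and highest values of 4.26, 4.70 and 5.11 in 8w off treatment skin, 3.32, 3.52 and 3.85 in systemic JAK1i skin, 4.65, 4.97 and 5.28 in AA skin and 3.49, 3.79 and 4.31 in healthy skin. Every 8w off treatment library was above every systemic JAK1i library, and every AA library above every systemic JAK1i and healthy library. Ranges of 8w off treatment and healthy skin overlapped, since healthy library B reached 4.31 and the 8w off treatment libraries A and D were at 4.26 and 4.31. The mean of the 17 replication members had 4.46, 4.82 and 4.99 in 8w off treatment skin, 3.96, 4.05 and 4.23 in systemic JAK1i skin, 4.38, 4.88 and 5.05 in AA skin and 3.93, 4.10 and 4.45 in healthy skin. Here all 8w off treatment libraries were above the healthy range, by 4.46 in library A against 4.45 in healthy library B, and AA library D, at 4.38, was inside it. The difference between the class means within a library was -0.39, -0.09 and 0.12 in 8w off treatment skin, -0.73, -0.48 and -0.30 in systemic JAK1i skin, 0.04, 0.23 and 0.27 in AA skin and -0.52, -0.34 and 0.02 in healthy skin. Where this difference crosses 0 depends on which genes make up each class, so only its shifts between groups can be read: every AA library was above every systemic JAK1i and healthy library, and the 8w off treatment range overlapped those of the other 3 groups.

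**Figure D2:**
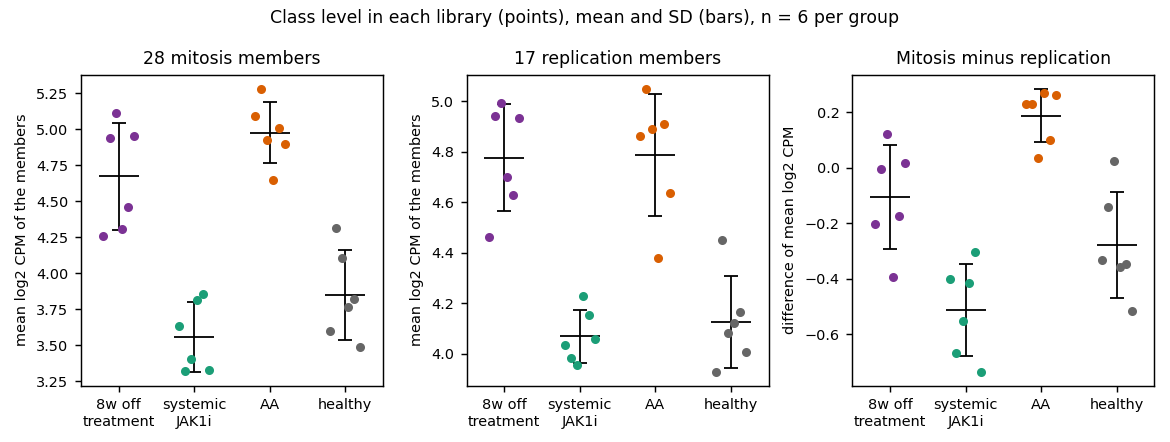
Mean log2 CPM of the 28 mitosis members, of the 17 replication members, and their difference, in each library (points), with the group mean and 1 SD (bars, n = 6 per group). The 6 systemic JAK1i libraries sit at 3.32 to 3.85 for mitosis, below all 8w off treatment and AA libraries, and the difference runs from -0.73 to -0.30 in them and from 0.04 to 0.27 in the AA libraries.

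Hair matrix and T cell markers had higher medians in 8w off treatment and AA skin than in systemic JAK1i and healthy skin, whereas B and plasma cell markers had their highest median in systemic JAK1i skin. The summed level of 11 hair matrix and precortex genes, of 12 listed, was 84.04 to 4903 CPM in 8w off treatment skin, 33.8 to 185 CPM in systemic JAK1i skin, 2275 to 6595 CPM in AA skin and 50.4 to 259 CPM in healthy skin, with none of the 11 at 0 throughout a group. Within 8w off treatment skin the libraries were split, with 123 and 84.04 CPM in libraries A and E and 2187 to 4903 CPM in the other 4. In these 2 libraries the mitosis mean was 4.26 and 4.46, above the systemic JAK1i maximum of 3.85, with hair levels inside the systemic JAK1i range. Library D was at 4.31, and libraries B, C and F were higher, at 4.94, 5.11 and 4.95. Library A also had the highest summed level of 11 T cell genes in the group, 155 CPM. Without libraries A and E, the median over mitosis members of 8w off treatment against systemic JAK1i was 1.39 and 27 of 28 were higher, against 1.26 and 27 with all 6. Over all genes, 6187 of 16680 were called in either direction without them, against 5841 of 16248 with all 6. Among healthy libraries, B had the highest mitosis mean and the lowest hair sum, 50.4 CPM. The summed level of 11 T cell genes was 59.8 to 155 CPM in 8w off treatment skin, 27.8 to 56 CPM in systemic JAK1i skin, 41.9 to 177 CPM in AA skin and 34.4 to 66.7 CPM in healthy skin, and Cd8b1, a chain of the CD8 coreceptor, had no count in any healthy library. Myeloid markers overlapped in all 4 groups, at 562 to 1577 CPM in 8w off treatment skin, 489.9 to 1418 CPM in systemic JAK1i skin, 1003 to 2085 CPM in AA skin and 649.8 to 1205 CPM in healthy skin over 8 genes. B and plasma cell markers summed to 30.6 to 87.9 CPM in 8w off treatment skin, 40.3 to 247 CPM in systemic JAK1i skin, 26.2 to 96.2 CPM in AA skin and 15.5 to 68.8 CPM in healthy skin over 8 genes, with Ms4a1, the gene of CD20, at 0 in every healthy library. Erythroid markers summed to 24.5 to 40.9 CPM in 8w off treatment skin, 58.99 to 93.9 CPM in systemic JAK1i skin, 11.9 to 38.8 CPM in AA skin and 24.4 to 205 CPM in healthy skin over 5 genes, with Hba-a2, an alpha globin, at 0 in every AA library. Skeletal muscle markers summed to 7349 to 34648 CPM in 8w off treatment skin, 15053 to 19280.3 CPM in systemic JAK1i skin, 5776 to 15689 CPM in AA skin and 255 to 19754 CPM in healthy skin. The part of hair, immune or muscle cells in the member results was not tested.

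**Figure D3:**
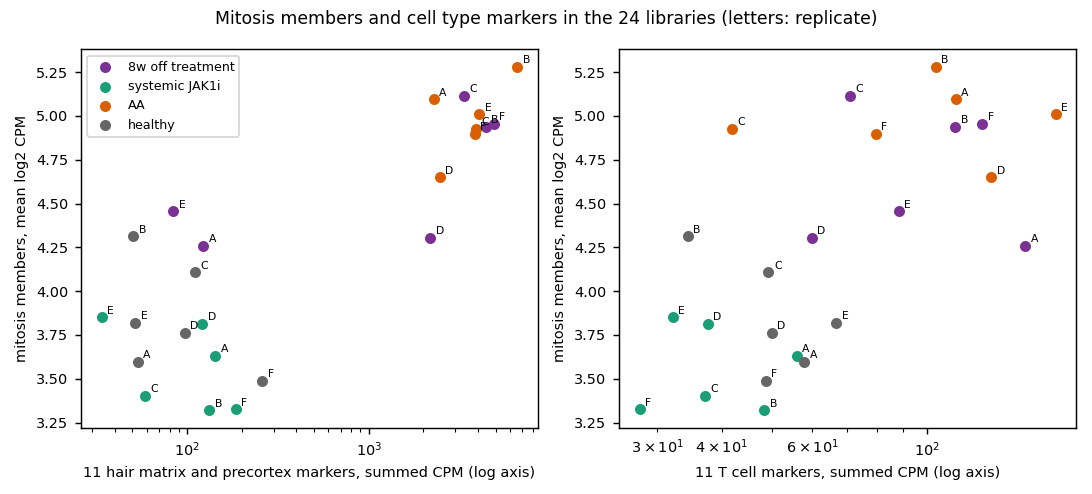
Mean log2 CPM of the mitosis members against the summed CPM of hair matrix and precortex markers (left) and of T cell markers (right), both on log axes; each point is a library and the letter its replicate. The 8w off treatment libraries A and E lie with systemic JAK1i and healthy skin in hair markers, at 123 and 84.0 CPM, and above all systemic JAK1i libraries in the mitosis mean.

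AA skin was set against healthy skin to ask how disease changed the members. Of 28 mitosis members, 27 were higher in AA skin and none was lower; of 17 replication members, 14 were higher and none was lower, beside 20.9% of all genes tested that were higher. The median fold change was 1.24 over mitosis and 0.58 over replication members, against 0.00 over all genes. Bub1, the kinetochore checkpoint kinase, and Birc5 rose most among mitosis members, by 1.64 ± 0.23 and 1.49 ± 0.19. Ccne1 and Cdc6, the helicase loader, rose most among replication members, by 1.502 ± 0.23 and 1.397 ± 0.18 (edgeR adjusted p of 4.3e-06 to 3.2e-05 for these 4 genes). Prc1, which bundles the microtubules of the central spindle, rose by 0.55 ± 0.12 (adjusted p = 6.1e-04). Ttk, the checkpoint kinase Mps1, was 0.13 ± 0.16 (adjusted p = 0.538), Ccne2, the second cyclin E, 0.11 ± 0.19 (adjusted p = 0.67), and Gins2, of the GINS complex, 0.28 ± 0.21 (adjusted p = 0.307), all by edgeR and not past the threshold. Every AA library lay above every healthy library in 24 mitosis and 6 replication members, beside 8.17% of all genes.

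The systemic JAK1i group was set against AA to ask how the members differed at the end of 4 weeks of dosing. Treatment, sampling week and age cannot be told apart in this contrast. Here 27 mitosis and 15 replication members were lower and none was higher, beside 24.8% of all genes lower. Median fold changes were -1.55 and -0.67, against -0.01 over all genes, and 27 mitosis and 10 replication members had every systemic JAK1i library below every AA library, beside 13.8% of all genes. Bub1 was lower by 1.92 ± 0.23 and Birc5 by 1.86 ± 0.19 on the log2 scale, and Plk1, the Polo kinase, by 1.85 ± 0.27. Among replication members, Ccne1 and Uhrf1 were lower by 1.69 ± 0.23 and 1.31 ± 0.19 (edgeR adjusted p = 5.9e-06 and 1.2e-05). Foxm1, a transcription factor of the mitosis programme, was -1.64 ± 0.19 (adjusted p = 8.8e-07), and E2f1, of the S-phase programme, -0.80 ± 0.16 (adjusted p = 3.5e-04), both by edgeR. Prc1, the called mitosis member that changed least, was -0.73 ± 0.12 (adjusted p = 2.9e-05) by the same test. Ttk, at -0.26 ± 0.16, Ccne2, at 0.11 ± 0.19, and Gins2, at -0.18 ± 0.20, were again the members not called (edgeR adjusted p = 0.176, 0.651 and 0.484 in that order).

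After withdrawal most members were higher than at the end of dosing. In 8w off treatment against systemic JAK1i skin, 27 mitosis and 15 replication members were higher and none was lower, beside 19.4% of all genes higher, with medians of 1.26 and 0.71 against -0.00 over all genes. In 20 mitosis and 10 replication members, every 8w off treatment library lay above every systemic JAK1i library, beside 8.77% of all genes. Plk1 and Bub1 rose most in the mitosis class, by 1.73 ± 0.27 and 1.62 ± 0.23, and Ccne1 and Uhrf1 in the replication class, by 1.64 ± 0.23 and 1.39 ± 0.19 (edgeR adjusted p of 1.4e-05 to 4.4e-05 for these 4 genes). Prc1 rose by 0.52 ± 0.12 (adjusted p = 0.0013) by the same test. Ttk was 0.17 ± 0.16, Ccne2 -0.01 ± 0.19 and Gins2 0.24 ± 0.20 (edgeR adjusted p = 0.423, 0.972 and 0.377 in that order). The replicate letters do not say which of these libraries came from the same mouse, so the groups were compared as unpaired. The fit thus took libraries of the same mice as independent, and the SE and p-values here leave out any correlation within a mouse.

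**Figure D4:**
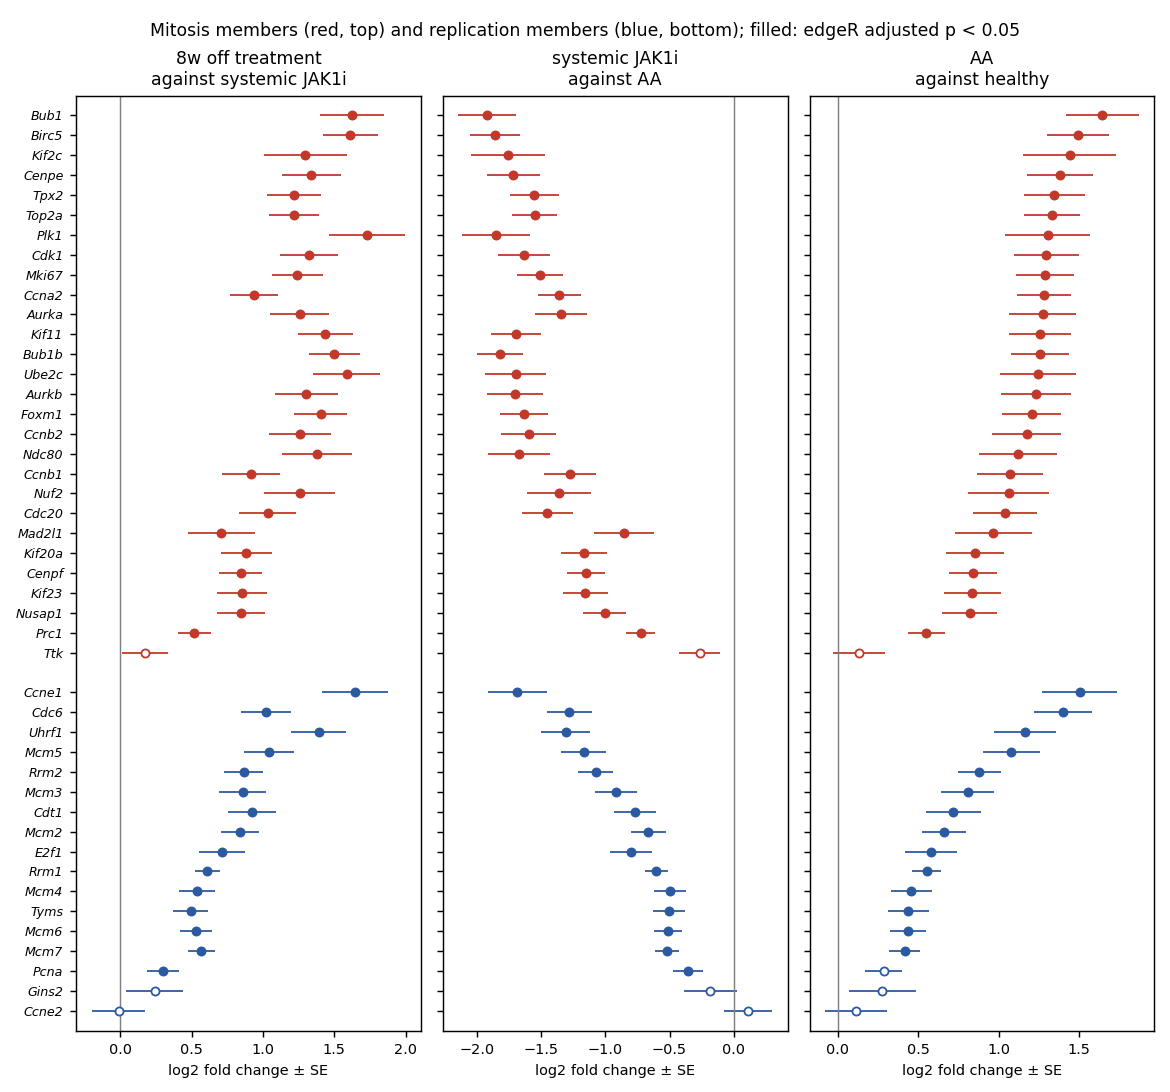
Log2 fold change ± SE of each member in 3 comparisons, ordered by AA against healthy within each class; filled points passed an edgeR adjusted p of 0.05, open points did not. Ttk, Gins2 and Ccne2 are open in every panel, and Pcna only in AA against healthy.

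Between systemic JAK1i and healthy skin, none of the 45 members was called by edgeR, beside 1.05% of all genes called in either direction. At an unadjusted p of 0.05, 7 mitosis members were lower and no replication member passed, beside 2751 of 16248 genes in either direction. DESeq2 called none, beside 3.9% of all genes by that tool. With limma-voom and its quality weights, 1 member was called lower, Bub1b, a checkpoint protein, beside 12.2% of all genes; its edgeR adjusted p was 0.114. The medians were -0.32 for mitosis and -0.07 for replication members, with 27 of the 28 mitosis estimates below 0. The ranges of the 2 groups overlapped in all 45 members, beside 2.56% of all genes in which they did not. The lowest estimates were those of Bub1b, -0.57 ± 0.18, and Ndc80, of the kinetochore, -0.55 ± 0.25, and the highest those of Aurka, the spindle-pole Aurora kinase, -0.08 ± 0.21, and Mad2l1, a checkpoint protein, 0.11 ± 0.24. Replication estimates ran from -0.22 ± 0.17 for E2f1 and -0.20 ± 0.14 for Rrm2 to 0.12 ± 0.18 for Cdc6 and 0.23 ± 0.19 for Ccne2.

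Between 8w off treatment and AA skin, likewise, none of the 45 members was called by edgeR, DESeq2 or limma-voom, beside 1.37%, 3.87% and 1.74% of all genes called by these tools in that order. At an unadjusted edgeR p of 0.05, 3 mitosis members were lower, beside 3011 of 16248 genes in either direction. The median was -0.30 over mitosis and 0.01 over replication members, and the mitosis value was -0.16 without the 8w off treatment libraries A and E. In all 45 members the ranges overlapped, beside 1.28% of all genes without overlap. Kif2c, a kinesin that shortens microtubules, and Cdc20 had the lowest mitosis estimates, -0.47 ± 0.28 and -0.42 ± 0.20, and Aurka and Ttk the highest, -0.09 ± 0.20 and -0.09 ± 0.16. Among replication members the lowest were Cdc6 and Rrm2, at -0.26 ± 0.17 and -0.21 ± 0.13, and the highest Mcm2 and Cdt1, a loader of the helicase, at 0.17 ± 0.13 and 0.15 ± 0.17.

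Set against healthy skin, 8w off treatment skin had 27 mitosis and 14 replication members higher and none lower, beside 16.9% of all genes higher. Medians were 0.94 and 0.56, against 0.01 over all genes, and 9 mitosis and 6 replication members had every 8w off treatment library above every healthy one, beside 4.31% of all genes. Bub1 and Birc5 led the mitosis class with 1.34 ± 0.23 and 1.24 ± 0.19, and Ccne1 and Uhrf1 the replication class with 1.46 ± 0.23 and 1.25 ± 0.19 (edgeR adjusted p of 5.9e-05 to 1.3e-04 for these 4 genes). Prc1, at 0.34 ± 0.12 (adjusted p = 0.026), was the smallest called mitosis value, and it was not called without 8w off treatment library B, C or F or healthy library A, D or F (0.29 to 0.32). Ttk was 0.04 ± 0.16, Ccne2 0.21 ± 0.19, Gins2 0.34 ± 0.21 and Pcna 0.23 ± 0.11, none past the threshold by edgeR. Without healthy libraries A and E, 19 mitosis and 12 replication members were called, with medians of 0.83 and 0.49. Over all genes, 3840 of 16576 were then called in either direction, against 5311 of 16248 with all libraries. AA against healthy without these 2 libraries gave 27 and 14 called members, beside 5535 of 16576 genes called in either direction.

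**Figure D5:**
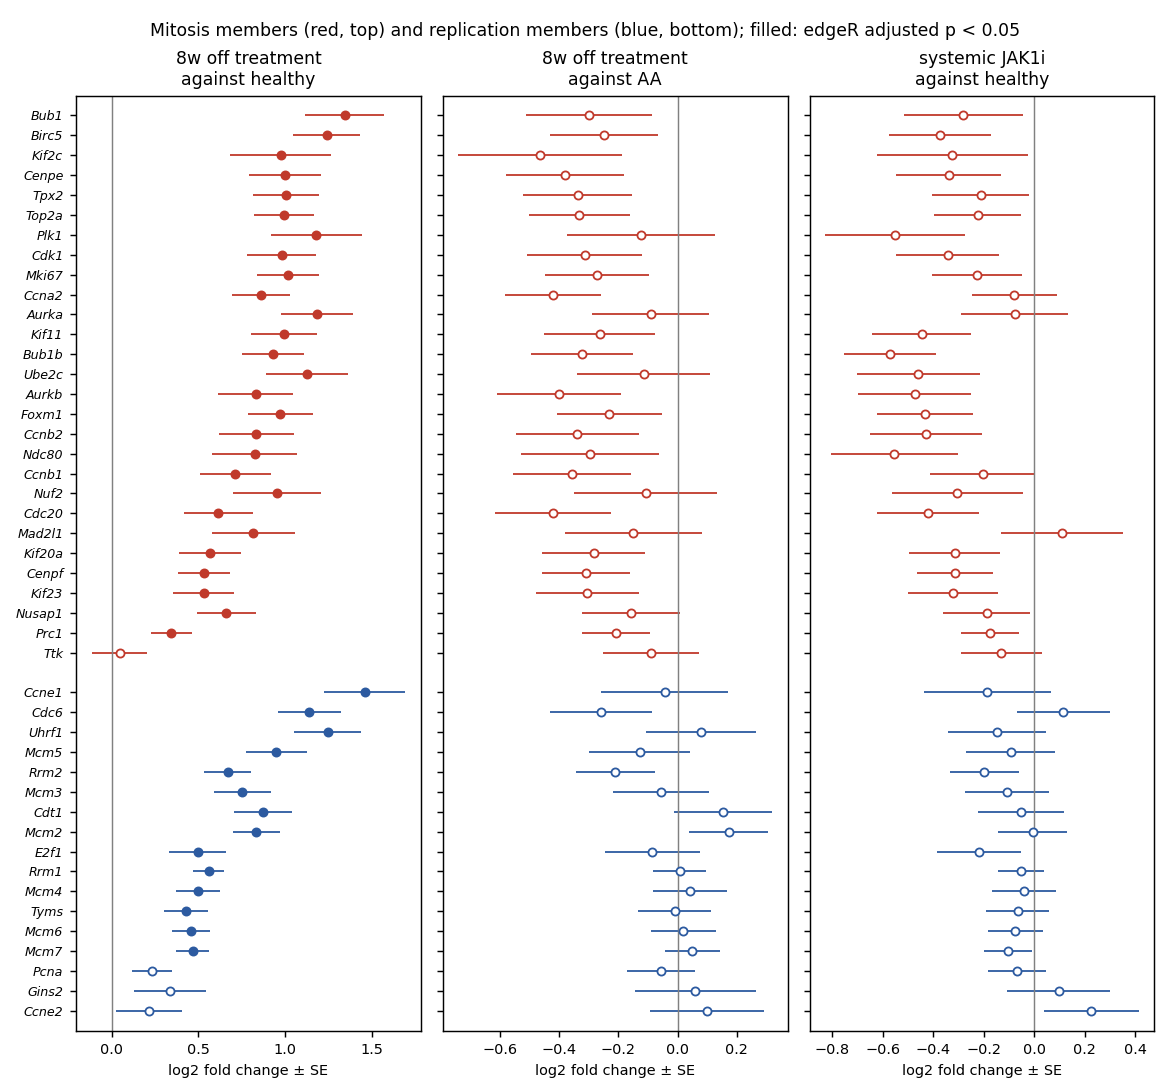
Log2 fold change ± SE of each member for 8w off treatment against healthy, 8w off treatment against AA, and systemic JAK1i against healthy, in the member order used for AA against healthy; filled points passed an edgeR adjusted p of 0.05. No point is filled in the middle and right panels.

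Several members share bases or copies with other genes, and their levels are less certain. Ube2c, the ubiquitin-conjugating enzyme of the anaphase-promoting complex, overlaps Tnnc2, a troponin of fast skeletal muscle, on the opposite strand. Tnnc2 had at most 3.06 CPM in the count table but 5.22 to 884 TPM in the TPM table. Ccna2, Cdc20, Kif20a, Nusap1, Prc1 and Mcm7 also overlap protein-coding genes on the opposite strand, as do Ccne2 (with Ints8) and Gins2 (with Gse1), which were called in no comparison, and Foxm1 overlaps Tex52 on its own strand. Ccnb1, Ccnb2, Pcna and Tyms have annotated pseudogenes named after them. Tyms, thymidylate synthase, was higher by 0.44 ± 0.13 in AA against healthy skin from counts (edgeR adjusted p = 0.0077) but -0.03 in the centred TPM table, and -0.50 ± 0.12 against 0.10 for systemic JAK1i against AA.

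Levels per transcript length, from TPM, put Top2a highest among mitosis members in AA skin, with a median of 41.6 TPM, followed by Mki67 at 18.6 and Cdk1 at 17.9 TPM. In the replication class the highest medians in AA skin were those of Pcna, 15.3 TPM, Tyms, 15.1 TPM, and Mcm7, 14.2 TPM. The lowest of all 45 were Ndc80, 1.85 TPM, E2f1, 1.86 TPM, and Cdc6, 1.94 TPM. These are levels within a group and not differences between groups.

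Other genes of the same processes were counted from lists assembled by function. The shares over all genes, against which these counts are to be read, were 20.9% higher and 19.3% lower in AA against healthy skin, 24.8% lower and 22.9% higher in systemic JAK1i against AA skin, 19.4% higher and 16.6% lower in 8w off treatment against systemic JAK1i skin, and 16.9% higher and 15.7% lower in 8w off treatment against healthy skin. Of 47 further mitosis genes tested, 44 were higher and 1, the phosphatase Cdc25b, was lower in AA against healthy skin, 46 were lower in systemic JAK1i against AA skin, 45 were higher in 8w off treatment against systemic JAK1i skin and 37 were higher in 8w off treatment against healthy skin. Dlgap5, a spindle protein, had 1.01 ± 0.12 (adjusted p = 1.8e-06) in AA against healthy skin, -1.399 ± 0.12 (adjusted p = 4.1e-08) in systemic JAK1i against AA skin and 1.03 ± 0.12 (adjusted p = 2.7e-06) in 8w off treatment against systemic JAK1i skin by edgeR. Beside it by the rule of smallest adjusted p stood Cdca2, a phosphatase-targeting protein of chromatin, at 1.43 ± 0.18 in AA and 1.13 ± 0.19 in 8w off treatment against healthy skin, Ccnf, cyclin F, at -1.26 ± 0.11 in systemic JAK1i against AA skin, and Kif15, a spindle kinesin, at 1.29 ± 0.16 in 8w off treatment against systemic JAK1i and 1.103 ± 0.16 against healthy skin. Ccnf was also the only one of the 4 lists' genes called between systemic JAK1i and healthy skin, at -0.46 ± 0.11 (adjusted p = 0.045) by edgeR.

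Of 41 further replication genes tested, 18 were higher in AA against healthy skin, 22 lower in systemic JAK1i against AA skin, 18 higher in 8w off treatment against systemic JAK1i skin and 15 higher in 8w off treatment against healthy skin, beside 20.9%, 24.8%, 19.4% and 16.9% of all genes in those directions, with medians of 0.32, -0.35, 0.32 and 0.23 in that order. Mcm10, an initiation factor, was 1.66 ± 0.21 in AA against healthy skin, -1.897 ± 0.21 in systemic JAK1i against AA skin, 1.79 ± 0.21 in 8w off treatment against systemic JAK1i skin and 1.55 ± 0.21 in 8w off treatment against healthy skin. Clspn, a replication checkpoint mediator, was 1.5 ± 0.21 in AA against healthy skin, Timeless, which protects the fork, -1.18 ± 0.14 in systemic JAK1i against AA and 1.15 ± 0.14 in 8w off treatment against systemic JAK1i skin, and Lig1, the ligase that joins Okazaki fragments, 0.85 ± 0.13 in 8w off treatment against healthy skin. Orc5, of the origin recognition complex, went the other way, at -0.46 ± 0.12 in AA against healthy and 0.56 ± 0.12 in systemic JAK1i against AA skin, as did Orc4, at 0.24 ± 0.08 in systemic JAK1i against AA skin. Orc4 is named after its values were seen, as are Orc5 and Cdc25b for these comparisons.

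Of 19 G1 cyclins, kinases, E2F and Myc factors, 10 were higher and 1 lower in AA against healthy skin, 11 lower and 2 higher in systemic JAK1i against AA skin, 12 higher and 1 lower in 8w off treatment against systemic JAK1i skin, and 10 higher in 8w off treatment against healthy skin. Over all genes, 20.9% were higher, 24.8% lower, 19.4% higher and 16.9% higher in the same order. Mybl2, the B-Myb partner of the DREAM subunits in cycling cells, was -2.301 ± 0.25 (adjusted p = 5.2e-07) in systemic JAK1i against AA skin and 2.09 ± 0.25 (adjusted p = 3.0e-06) in 8w off treatment against systemic JAK1i skin by edgeR, and 1.94 ± 0.25 in AA and 1.73 ± 0.25 in 8w off treatment against healthy skin. E2f3, an activating E2F, was 1.33 ± 0.14 in AA and 1.18 ± 0.14 in 8w off treatment against healthy skin, and E2f8, a repressing one, -1.53 ± 0.18 in systemic JAK1i against AA and 1.4 ± 0.18 in 8w off treatment against systemic JAK1i skin. Tfdp2, a partner of E2F proteins, was the exception, at -0.22 ± 0.08 in AA against healthy, 0.40 ± 0.08 in systemic JAK1i against AA and -0.21 ± 0.07 in 8w off treatment against systemic JAK1i skin, joined by E2f6, a repressing E2F, at 0.57 ± 0.23 in systemic JAK1i against AA skin. Both are named here after their values were seen.

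Of 17 CDK inhibitors, pocket proteins and DREAM subunits tested, 5 were higher and 3 lower in AA against healthy skin, 4 higher and 8 lower in systemic JAK1i against AA skin, 5 higher and 4 lower in 8w off treatment against systemic JAK1i skin and 2 higher and 3 lower in 8w off treatment against healthy skin. Over all genes, 20.9% were higher and 19.3% lower, 22.9% higher and 24.8% lower, 19.4% higher and 16.6% lower, and 16.9% higher and 15.7% lower in these comparisons, so that the counts for AA and for 8w off treatment against healthy skin lie near the background. Rbl1, the pocket protein p107, was 0.64 ± 0.13, -0.57 ± 0.13, 0.52 ± 0.13 and 0.59 ± 0.13 in these 4 comparisons. Cdkn1a, the inhibitor p21, was -0.74 ± 0.14 (adjusted p = 1.5e-04) in systemic JAK1i against AA skin by edgeR, and Cdkn1b, the inhibitor p27, -0.32 ± 0.08 (adjusted p = 0.0033) in AA against healthy skin. Lin9, a core subunit of DREAM, was 0.54 ± 0.15 in 8w off treatment against systemic JAK1i skin, and Cdkn2c, the inhibitor p18, -0.57 ± 0.15 in 8w off treatment against healthy skin. None of the 124 genes tested in these 4 lists was called between 8w off treatment and AA skin by edgeR. At an unadjusted p of 0.05, 4 were higher and 13 lower, beside 3011 of 16248 genes in either direction. The smallest adjusted p-values there were those of Ccnf, -0.43 ± 0.11, and Cdk6, a G1 kinase, -0.37 ± 0.11 (edgeR adjusted p = 0.052 and 0.072). By the same rule, Dlgap5 was -0.37 ± 0.12, Cdk4, another G1 kinase, -0.23 ± 0.08, Orc5 0.35 ± 0.12, Slbp, which binds histone mRNA, -0.31 ± 0.13, Btg2, an antiproliferative factor, -0.40 ± 0.14 and Cdkn1a -0.28 ± 0.14 (edgeR adjusted p of 0.093 to 0.287), none of them called. Between systemic JAK1i and healthy skin, besides Ccnf, the rule named Cdc25b at -0.33 ± 0.09, Dut, the dUTPase, at -0.60 ± 0.19, Pold1, of DNA polymerase delta, at -0.47 ± 0.15, Ccnd1, cyclin D1, at -0.47 ± 0.13, E2f6 at 0.63 ± 0.23, Cdkn2b, the inhibitor p15, at -0.34 ± 0.17 and Lin52, of DREAM, at 0.28 ± 0.15 (edgeR adjusted p of 0.066 to 0.329), again not called.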

How the data were processed

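RNA of 24 dorsal skin samples was sequenced by the authors as 2 reads of 76 bases per fragment. The library protocol names a stranded total RNA kit with ribosomal RNA depletion, used without fragmentation because of low RNA integrity, whereas the sample descriptions say PolyA RNA. The submitters' processing notes name HISAT2 2.0.1, featureCounts 1.4.4 and build mm10/GRCm38; for the annotation version, for whether strand was used and for reads shared by genes, the entry is not given in the sources used here. The deposited count table holds whole-number counts per gene, not normalized by the authors. The authors also deposited a TPM table, in which values are scaled to transcript length and library size; it was used for levels between genes and as an alternative. In each table, 6 columns matched no sample and were not used. IDs were named by GENCODE M21.

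Genes with low counts were removed with filterByExpr (minimum count 10), leaving 16248, and all 4 groups were fitted together with TMM scaling in edgeR 4.0.16 (R 4.3.3), by quasi-likelihood tests with Benjamini-Hochberg adjustment over all genes and a threshold of 0.05. Log2 CPM used a prior count of 2. The scripts were tested on simulated counts. Total counts of 3444193 to 11233020 per library set the counting error. Each SE was taken from the edgeR quasi-likelihood test and covers the spread between libraries as well. Alternatives were DESeq2 1.42.0, limma-voom with quality weights and log2 TPM (limma 3.58.1), other scalings and filters, a replicate block and leaving out libraries.

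The replicate letters were not used for pairing: same-lettered libraries correlated above 0.1 in at most 2 of 6 pairs in any comparison. That check covers the match by letter only and cannot show that libraries of the same mice are independent. The 45 members and the lists were chosen with earlier results of these data known. Per-library values are given for 12 members chosen by role. In each comparison and class the 2 largest and 2 smallest fold changes are named. Of each other list the 2 genes with the smallest adjusted p are named, with the additions stated. Further members, among them Plk1, Foxm1 and E2f1 in systemic JAK1i against AA skin, are named outside this rule. Motifs were searched as exact letters on both strands.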

Additional observations from a re-analysis of the deposited data

Results flagged for a closer look

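In 11 of the 192 sets of 6 libraries examined (45 members, the 2 class means and their difference, in 4 groups), the highest or lowest library stood away from its group by a gap beyond Dixon's critical value for 6 samples. Chance alone gives such a gap in about 1 set in 20. In the 8w off treatment group, Tyms in library A was at a log2 CPM of 4.08, below the others at 4.57 to 4.70. In the systemic JAK1i group, Ccnb2 in library E was at 3.13, above 2.41 to 2.66 in the others, Ndc80 in library D at 2.50, above 1.49 to 1.80, Ttk in library F at 3.95, below 4.56 to 4.82, and Cdt1 in library C at 2.79, below 3.22 to 3.39. In the AA group, library D was lowest in Bub1, at 3.62 with the others at 4.28 to 4.64, in Bub1b, at 4.64 with the others at 5.09 to 5.32, and in Birc5, at 3.56 with the others at 3.91 to 4.02, and library F was lowest in Ccnb2, at 3.70 with the others at 4.23 to 4.43. In the healthy group, library B was highest in Plk1, at 3.25 with the others at 1.98 to 2.45, and in Mcm2, at 5.05 with the others at 4.27 to 4.503. None of the class means or their differences stood apart in this way. The causes were not tested.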

How the results depend on the processing

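Results from counts were compared under both other scalings, both other filters, DESeq2, limma-voom and fits of the 2 groups alone. The numbers of called members other than 0 kept their direction. None moved by over 1.5 times, except that limma-voom called 1 mitosis member, Bub1b, lower in systemic JAK1i against healthy skin. Each of the 12 medians shifted by less than the SD of the class means between libraries. For medians smaller than that SD the sign was not assessed. With the replicate letter as a block, 27 mitosis and 14 replication members were called in AA against healthy skin, beside 6256 of 16248 genes in either direction. Pcna in 8w off treatment against systemic JAK1i skin was the only member call lost under this block (0.30). Pcna also lost that call under upper-quartile scaling and with no filter (0.27 and 0.29). In 8w off treatment against healthy skin, Prc1 lost its call with no filter (0.33), and fits of the 2 groups alone did not call Cdc20, Kif23, Prc1, Mad2l1 or E2f1 (0.34 to 0.82). With limma-voom, Pcna passed in AA (0.32) and in 8w off treatment (0.27) against healthy skin.

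Leaving out 1 library at a time gave 26 to 27 mitosis and 14 to 15 replication members for 8w off treatment against systemic JAK1i. Medians were 1.14 to 1.32 and 0.61 to 0.79, beside 5074 to 6052 of all genes called in either direction. Against healthy, 8w off treatment gave 24 to 27 and 13 to 14 (medians 0.83 to 1.04 and 0.50 to 0.63), beside 4514 to 6025. Systemic JAK1i against AA gave 27 and 15 (-1.60 to -1.48 and -0.71 to -0.63), beside 7000 to 7774. AA against healthy gave 27 and 14 to 15 (1.14 to 1.34 and 0.53 to 0.64), beside 5724 to 7110. No member was called in systemic JAK1i against healthy (49 to 704 genes) or 8w off treatment against AA (68 to 493). The replication median of 8w off treatment against AA changed sign, from -0.06 to 0.06. Besides Pcna and Prc1, Mad2l1 lost its call in 8w off treatment against systemic JAK1i (0.58 to 0.65, 3 libraries). In 8w off treatment against healthy, so did Cdc20 (0.49 to 0.52, 3 libraries), E2f1 (0.39 to 0.45, 4), Kif20a (0.47 to 0.48, 2) and Kif23 (0.42 to 0.48, 3).

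The deposited TPM values shifted all genes: with a pseudocount of 0.1 the median over all genes was -1.16 for 8w off treatment against systemic JAK1i, -0.80 for 8w off treatment against healthy, -0.51 for 8w off treatment against AA, 0.65 for systemic JAK1i against AA, 0.34 for systemic JAK1i against healthy and -0.29 for AA against healthy. Without centring, and with pseudocounts of 0.1 and 1 alike, 5 mitosis and 7 replication members were called lower in 8w off treatment against systemic JAK1i. Beside them, 14142 and 14181 of 16248 genes were called in either direction. In 8w off treatment against healthy skin, 1 and 3 members were lower, beside 11669 and 11492 genes. With no filter these were 4 and 5, and 1 and 2, beside 18597 and 12593 of 31833 genes. In systemic JAK1i against AA, 9, 10 and 6 mitosis members were lower (pseudocount 0.1, pseudocount 1, no filter), against 1 replication member higher, 2 called (1 in each direction) and 1 higher. Over all genes, 9167 and 9642 of 16248 and 10454 of 31833 were called in either direction in that order. In AA against healthy, 3, 6 and 0 mitosis and 0 replication members were higher, beside 2628, 2886 and 2459 genes called in either direction.

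Relative to the median of all genes, class medians kept their sign in TPM where the median from counts exceeded the SD between libraries. The mitosis median of systemic JAK1i against AA was -1.21, -0.96, -1.11 and -1.18 (pseudocount 0.1, pseudocount 1, no filter, centred), that of 8w off treatment against systemic JAK1i 0.93, 0.76, 0.77 and 0.92, that of AA against healthy 0.73, 0.89 and 0.95 (pseudocount 1, no filter, centred), and that of 8w off treatment against healthy 0.48 and 0.47 (pseudocount 1, no filter). Replication medians with no filter were 0.51 and 0.29 for 8w off treatment against systemic JAK1i and against healthy. Centring, chosen after seeing the data, gave 25 and 13 members for 8w off treatment against systemic JAK1i, 18 and 11 against healthy, 26 and 13 for systemic JAK1i against AA and 26 and 13 for AA against healthy, in the direction of the counts. Of all 16248 genes, 4781, 4373, 6607 and 5610 were called in either direction in that order. Tyms changed sign, to -0.0079, -0.059, -0.090 and -0.031 in AA against healthy, 0.076, 0.18, 0.18 and 0.10 in systemic JAK1i against AA, -0.019, -0.19, -0.18 and -0.034 in 8w off treatment against systemic JAK1i (same 4 settings), and -0.090 and -0.12 in 8w off treatment against healthy (pseudocount 1, no filter). In that comparison Ttk was at -0.025, -0.0019 and -0.19, Ccne2 at -0.096, -0.023 and -0.26 and Pcna at -0.050 and -0.16; with no filter, Ttk and Pcna were at -0.021 and -0.0026 in 8w off treatment against systemic JAK1i. The cause was not tested. Leaving out healthy libraries A and E, or 8w off treatment libraries A and E, was also chosen after seeing the data. Low counts limit Ccne1, with 7 to 43 per library.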
